A study of Mus musculus with 25 samples.

Results

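Flt3, Btla, Dpp4, Zbtb46, Dnase1l3, Cd209a, Xcr1, Itgae and Irf8 are 9 genes known from mouse dendritic cells. They were followed in CD11b+ cells that had been sorted from mouse kidneys by surface Ly6C. For each gene the probe set with the highest mean log2 value over 21 arrays was taken. The 9 genes stand among 18194 genes with a probe set of their own. Testing required that the probe set was called P, the array software's call for detected, on 2 or more arrays of some group. This left 8341 genes, of which 7 are dendritic cell genes, and Zbtb46 and Xcr1 were not tested.

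All mice were male C57BL/6 animals aged 8 to 10 weeks. The injured mice had 28 min of ischemia of both kidneys and then reperfusion, while sham mice went through the surgery with the kidneys left unclamped. The injured groups were the Ly6C High and Ly6C Intermediate cells at 4 h, the Intermediate cells at 24 h, and the Low and Intermediate cells at 9 days, with 3 arrays each. For 1 array of 4 h High, replicate 30, a line of the description names 9 days while its other labels name 4 h, and it was kept at 4 h. The sham groups were Ly6C Low, Intermediate and High with 2 arrays each. How long after surgery the sham kidneys were taken is not stated in the labels. By the labels each array held 1 gate of 1 numbered animal, and gates of the same animal share its number. RNA was amplified from picogram amounts before it was hybridized. The mean of 2 or 3 arrays limits the precision of each value.

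Dendritic cells take up antigen in tissues and carry it to lymph nodes, where they present it to T cells. Conventional dendritic cells grow under the cytokine Flt3 ligand and fall into type 1 cells, which depend on the transcription factor IRF8 and carry XCR1, and type 2 cells, which carry CD11b and share many surface proteins with macrophages. In the mouse kidney most mononuclear phagocytes express CD11b and CD11c to some degree, so that dendritic cells and resident macrophages overlap in a CD11b+ sort. Type 1 dendritic cells carry little CD11b.

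Detection differed between arrays before any gene is considered. From 1.99% to 40% of the 45101 probe sets were called P on the 21 arrays. The shares in the Low gates were 25.3%, 32.8% and 37.3% in 9 day Low and 40% and 27.4% in sham Low. The 3 arrays under 5% were replicates 8 and 13 of 9 day Intermediate and replicate 1 of sham High. On the sham arrays the probe set for Ly6c1 and Ly6c2, which encode the sorted Ly6C protein, went against the labelled gates. Its log2 values were 12.57 and 10.37 for the sham Low arrays, 11.66 and 10.26 for sham Intermediate, and 2.83 and 12.03 for sham High. The 9 day Low arrays gave 5.25, 4.32 and 4.76, against 5.27, 10.92 and 5.01 for 9 day Intermediate (replicates 8, 9 and 13), so that replicates 8 and 13, the arrays of low yield, lay at the level of 9 day Low. A measure of RNA quality is the ratio of 3′ to 5′ Gapdh signal. It was 1.85 and 2.82 for sham Low, 431 and 3.93 for sham Intermediate and 298 and 28.3 for sham High. In 9 day Low the ratio was 10.7, 7.78 and 3, and in 9 day Intermediate 0.923, 2.33 and 8.16 (replicates 8, 9 and 13). Its part in the sham differences and in those at 9 days was not tested. The arrays labelled sham Low therefore carried a Ly6c signal close to that of the sham Intermediate arrays. All results on sham Low below rest on these 2 arrays and their labels. The labels name the cells macrophages, and 12 or 13 of 13 macrophage genes were called P on each Low array of both kinds.

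The promoters of the genes that stood apart in the Low gates are shown first, to place Flt3, Btla and Dpp4, which passed the detection filter only through sham Low, beside Irf8, which was highest in 9 day Low. RefSeq's table for GRCm38.p6 held a start for 7 of the 9 genes. Each line gives the 250 bases before 1 annotated transcript start, 5′ to 3′ on the gene's strand. Flt3 lies on the minus strand at chr5:147400490-147400739, Btla on the plus strand at chr16:45224087-45224336, Dpp4 on the minus strand at chr2:62412232-62412481 and Irf8 on the plus strand at chr8:120736108-120736357. The Btla window lies inside the annotated gene and the Dpp4 window overlaps its end, since both genes have a start further out. Capitals mark matches to 3 motifs searched on both strands: GGAA, any NN, then GAAA (bound by PU.1 with an IRF protein), GAAA, any NN, then GAAA (a pair of IRF sites), and GAGGAAG (a PU.1-type core). These motifs can overlap each other.
Flt3: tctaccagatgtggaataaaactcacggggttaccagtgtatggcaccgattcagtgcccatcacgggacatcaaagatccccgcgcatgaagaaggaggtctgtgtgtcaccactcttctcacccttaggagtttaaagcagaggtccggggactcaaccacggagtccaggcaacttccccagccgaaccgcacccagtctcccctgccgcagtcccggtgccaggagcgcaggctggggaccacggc
Btla: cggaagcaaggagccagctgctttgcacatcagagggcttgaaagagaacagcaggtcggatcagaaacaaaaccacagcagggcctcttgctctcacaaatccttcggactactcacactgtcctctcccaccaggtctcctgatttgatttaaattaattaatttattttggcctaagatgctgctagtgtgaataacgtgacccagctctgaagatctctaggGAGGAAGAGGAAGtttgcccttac
Dpp4: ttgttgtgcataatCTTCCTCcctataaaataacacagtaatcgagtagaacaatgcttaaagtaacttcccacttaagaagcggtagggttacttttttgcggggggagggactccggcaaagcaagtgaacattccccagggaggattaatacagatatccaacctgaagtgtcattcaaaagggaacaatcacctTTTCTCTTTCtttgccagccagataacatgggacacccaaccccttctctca
Irf8: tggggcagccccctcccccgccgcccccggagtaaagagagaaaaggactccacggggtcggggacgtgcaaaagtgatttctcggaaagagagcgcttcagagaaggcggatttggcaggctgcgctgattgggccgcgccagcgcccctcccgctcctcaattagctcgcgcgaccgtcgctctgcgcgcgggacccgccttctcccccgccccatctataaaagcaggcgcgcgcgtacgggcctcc

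Among these windows Btla held GAGGAAG in 2 overlapping copies that begin 24 and 18 bases before its start. Dpp4 held the pair of IRF sites on the opposite strand, from 52 bases before its start, and GAGGAAG on the opposite strand, from 236 bases before it. Over all 32851 promoter windows of the same length, 10.6% held GAGGAAG, 2.98% held the pair of IRF sites and 2.30% held the site of PU.1 with IRF. No match to these letters was found in the windows of Flt3 and Irf8, nor in those of Zbtb46, Cd209a and Xcr1. A match is a description of the letters only.

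Detection of the 9 genes was concentrated on a few arrays. On the sham Low arrays 8 and 6 of the 9 genes were called P, against 0 and 1 in sham Intermediate and 0 and 0 in sham High. Of all probe sets, 40% and 27.4% were called P in sham Low. The shares were 15.9% and 22.2% in sham Intermediate and 1.99% and 12.9% in sham High. The 9 day Low arrays had 3, 2 and 6 of the genes called P (replicates 8, 9 and 13), against 0, 3 and 0 in 9 day Intermediate. The 9 day Intermediate shares were 3.29%, 25.5% and 4.67% of all probe sets. The 9 arrays taken at 4 h and 24 h had 0 to 2 genes called P each, at 10.1% to 19.2% of all probe sets. The 3 arrays labelled sham 58 High, which entered no comparison because nothing in their label says if they came from different mice, had 6, 7 and 7. Their yields were 33.6%, 29.3% and 30.2%, so the arrays with 6 or more of the genes were all among those with at least 27.4% of probe sets called P. Over the 21 arrays the log2 value followed the share of probe sets called P with Pearson r = 0.74 for Dnase1l3, 0.63 for Irf8 and 0.56 for Cd209a. For Dpp4 r was 0.47, for Btla 0.25 and for Flt3 0.08. It was negative for Itgae (-0.44), Xcr1 (-0.58) and Zbtb46 (-0.60). These are descriptions over arrays that share groups and animals. The part of array yield in the results was not tested beyond the model with yield as a covariate.

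**Figure D1:**
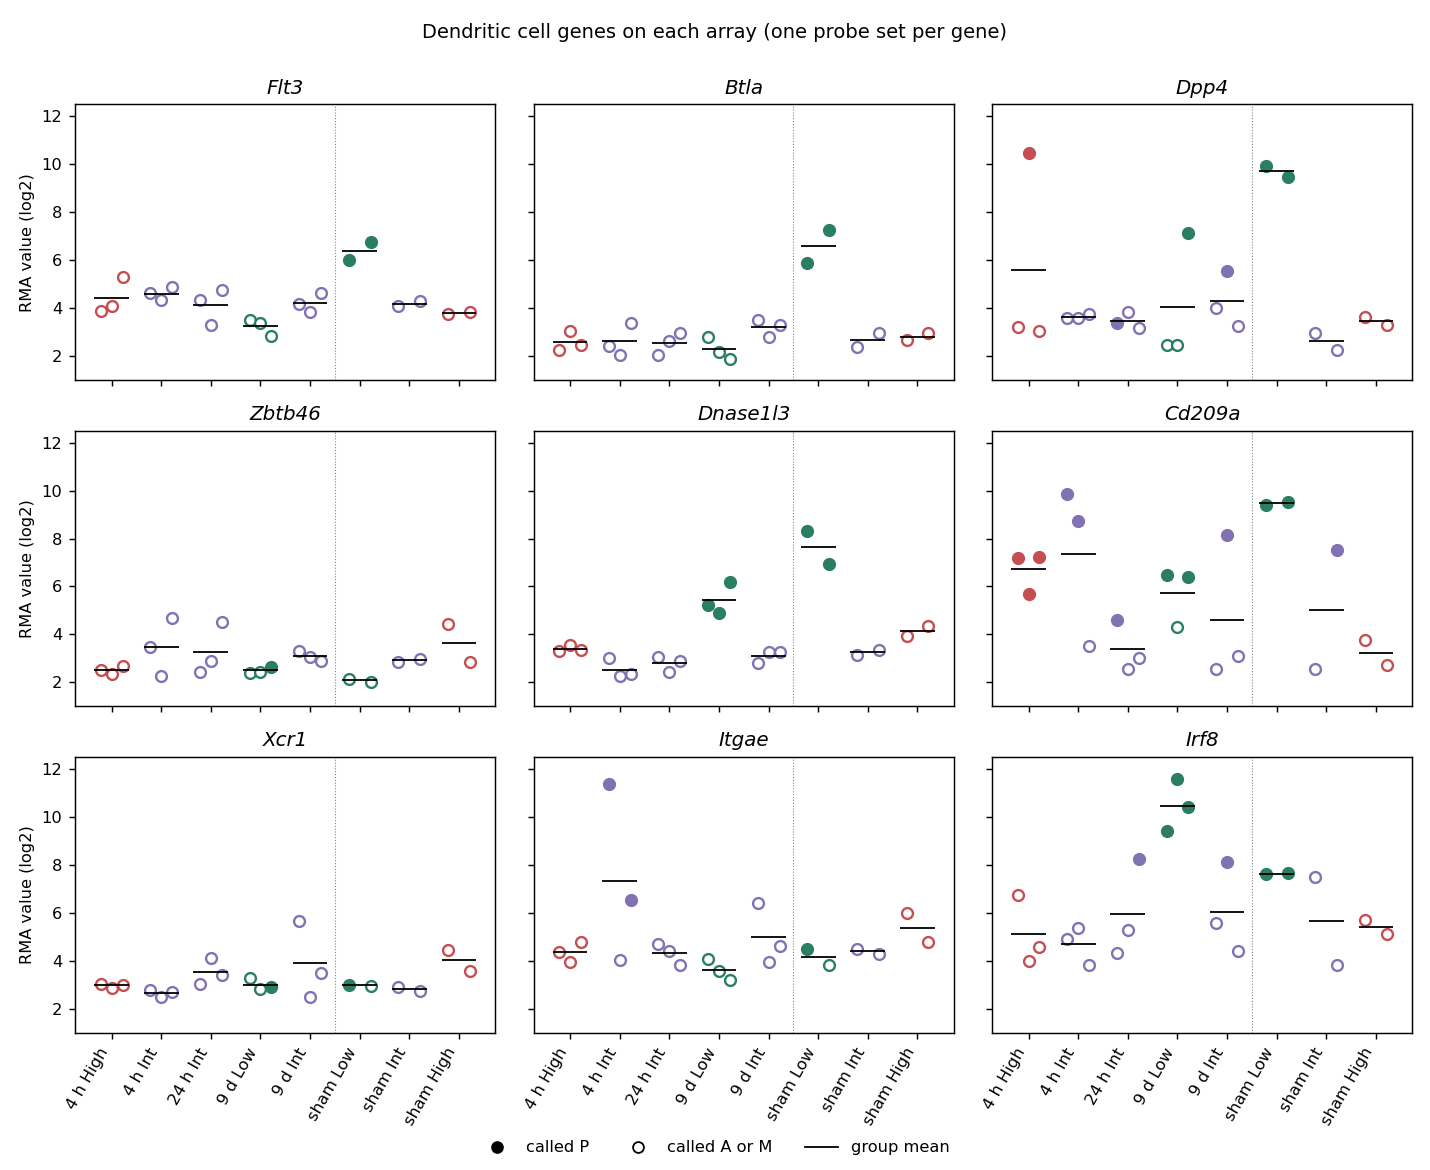
Values of the 9 dendritic cell genes on 21 arrays (y axis, RMA log2 value of 1 probe set per gene) in the 8 groups (x axis; Int, Intermediate; d, day; the dotted line parts injured from sham groups). Filled points were called P, open points A or M, and the bar is the group mean; Flt3 and Btla have filled points only in sham Low, where they lie at 5.90 or above, while all 3 Irf8 points of 9 day Low lie at 9.41 or above.

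**Figure D2:**
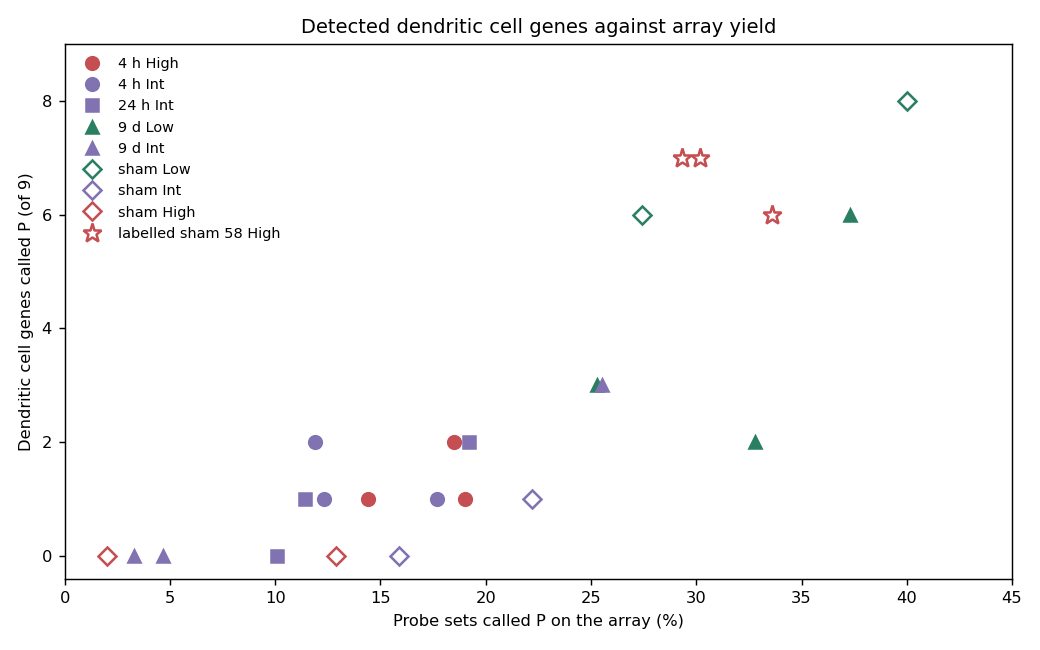
Number of the 9 genes called P on an array (y axis) against the share of all probe sets called P there (x axis, %), with 1 point for each of the 21 arrays compared and stars for the 3 labelled sham 58 High. The arrays with 6 to 8 genes called P are sham Low, sham 58 High and 9 day Low replicate 13, all at 27.4% of probe sets or more, and 9 day Low replicate 9 lies at 32.8% with 2 genes.

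Flt3 (chr5:147330741-147400489 in GRCm38.p6) encodes the receptor for Flt3 ligand, which drives the growth of dendritic cell progenitors and of conventional dendritic cells. Its probe set gave 3.52, 3.40 and 2.85 (log2) in 9 day Low (replicates 8, 9 and 13), all called A, against 6.02 and 6.76 in sham Low, both called P. On the other 16 arrays it lay between 3.31 and 5.30 and was never called P. The 2 sham Low arrays were thus above all others, and 9 day Low had the lowest group mean, 3.26 ± 0.36 (SD, n = 3), without overlap with sham Low at 6.39 ± 0.52 (n = 2). The 6 group means in between, from 3.79 to 4.61, belonged to neighbours that mostly overlapped, and only sham High (3.75 and 3.83) and 9 day Low did not overlap as neighbours at the low end.

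Btla (chr16:45223705-45252895 in GRCm38.p6) encodes an inhibitory receptor of lymphocytes and dendritic cells that binds the TNF receptor family member HVEM. It gave 2.80, 2.19 and 1.89 in 9 day Low, all called A, against 5.90 and 7.26 in sham Low, both called P. The highest of the other 16 arrays was 3.53, in 9 day Intermediate replicate 8, and all 16 were called A. Its order of group means began with sham Low at 6.58 ± 0.96 (SD, n = 2) and went on with 9 day Intermediate at 3.22, after which every neighbour overlapped down to 9 day Low at 2.29 ± 0.46 (n = 3).

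Both genes fell in 9 day Low relative to sham Low. The log2 difference was -4.29 ± 0.73 (SE) for Btla, at least 19.6-fold lower, with adjusted p = 0.0104 in limma, and -3.13 ± 0.72 for Flt3, at least 8.76-fold lower, with adjusted p = 0.0458. Here and below a fold is marked "at least" where no array of the dimmer group was called P. For this fold the dim values were raised, where lower, to the dimmest P value of their array. Since all dim values lay above that floor it equals the fitted fold. The mark thus refers to detection only and is no lower bound given the SE. Btla and Flt3 were 2 of the 7 genes tested, where 0.995% of all genes were called. Both genes passed the detection filter only through sham Low, which favours genes that are higher there, and the count of 2 is no support of its own. Without sham Low replicate 2 Btla was at -3.61 (adjusted p = 0.172) and Flt3 at -2.76 (adjusted p = 0.416). The call of Flt3 also ended without sham Low replicate 1, without any 1 array of 9 day Low, 4 h High, 4 h Intermediate or 24 h Intermediate, and without 9 day Intermediate replicate 8 or 13, at adjusted p from 0.0500 to 0.113. Both calls also ended with quantile normalization (Btla -3.08, adjusted p = 0.133; Flt3 -1.99, adjusted p = 0.512), with centring on the array median (0.115 and 0.290), with log2(signal + 1) (0.237 and 0.267) and in a fit of only the groups compared (0.0715 and 0.106).

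Against the other sham gates, which share the same 2 sham Low arrays, neither gene passed. For Btla the log2 difference was 3.90 ± 0.80 against sham Intermediate (at least 14.9-fold, adjusted p = 0.0782) and 3.78 ± 0.80 against sham High (at least 13.7-fold, adjusted p = 0.0683). For Flt3 it was 2.19 ± 0.79 against sham Intermediate (at least 4.58-fold, adjusted p = 0.375) and 2.60 ± 0.79 against sham High (at least 6.04-fold, adjusted p = 0.125). Without the arrays of low yield the Btla difference from sham Intermediate was again 3.90, with adjusted p = 0.0408. On the arrays labelled sham 58 High Btla was called P on all 3, at 5.44, 7.85 and 6.33, and Flt3 on 1, at 6.13, against 3.57 and 4.21 called A. In sorted cells measured in bulk, fewer cells of a type and less RNA per cell cannot be told apart.

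Dpp4 (chr2:62330073-62412315 in GRCm38.p6) encodes CD26, a membrane peptidase that removes N-terminal dipeptides from chemokines. CD26 marks mouse conventional dendritic cells as well as T cells and kidney epithelium. The Dpp4 probe set gave 2.46, 2.49 and 7.16 in 9 day Low (replicates 8, 9 and 13), with only the last called P. In sham Low it gave 9.95 and 9.46, both called P. In sham Intermediate it gave 2.99 and 2.28 and in sham High 3.65 and 3.30, all called A. A single array at 4 h, High replicate 32, reached 10.49, called P, beside 3.23 and 3.05 in the same group. Values in 4 h Intermediate ran from 3.60 to 3.75, in 24 h Intermediate from 3.17 to 3.84 and in 9 day Intermediate from 3.28 to 5.56.

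The Dpp4 differences did not pass the test. The log2 difference was 7.07 ± 1.90 in sham Low minus sham Intermediate (at least 134-fold, adjusted p = 0.171) and 6.23 ± 1.90 in sham Low minus sham High (at least 75.1-fold, adjusted p = 0.125). The 9 day Low minus sham Low difference was -5.67 ± 1.74 (adjusted p = 0.146), and without 4 h High replicate 32 it was called (adjusted p = 0.0300). Dpp4 passed the detection filter only through sham Low. The other 3 probe sets named for Dpp4 did not show the sham Low level. Their sham Low means were 4.24, 2.31 and 2.29, against 3.40, 2.30 and 2.52 in sham Intermediate. The sham Low minus sham Intermediate difference of the dimmest of them was -0.23. The brightest of them was called P on 11 of 21 arrays, among them every array of 9 day Low, 4 h High and sham Low. Its means there were 4.08, 5.69 and 4.24. On the sham 58 High arrays Dpp4 gave 10.44, 6.29 and 10.04, all called P.

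Dnase1l3 (chr14:7965187-7994760 in GRCm38.p6) encodes a secreted nuclease made by macrophages and dendritic cells that degrades DNA in microparticles. It gave 5.24, 4.90 and 6.18 in 9 day Low, all called P, against 2.81, 3.27 and 3.28 in 9 day Intermediate, all called A. In sham Low it gave 8.33 and 6.92, both called P, against 3.14 and 3.36 in sham Intermediate and 3.93 and 4.37 in sham High, all called A. The remaining 9 arrays, at 4 h and 24 h, lay between 2.26 and 3.58 and were called A. Dnase1l3 was therefore called P on all 5 Low arrays and on none of the other 16, and the 2 Low groups were above all others without overlap.

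Between sham gates 1 of the 7 genes, Dnase1l3, was called. It was higher in sham Low than in sham Intermediate by 4.38 ± 0.77 (at least 20.8-fold, adjusted p = 0.0417 in limma), where 0.0719% of all genes were called. This difference was known when the genes were chosen, and Dnase1l3 passed the detection filter only through the Low groups, where it is high, so neither this count nor those below are support of their own. Against sham High the difference was 3.47 ± 0.77 (at least 11.1-fold, adjusted p = 0.0730). At 9 days the Low minus Intermediate difference was 2.32 ± 0.63 (at least 4.98-fold, adjusted p = 0.0813), and it was called at 2.39 (adjusted p = 0.0302) without 9 day Intermediate replicate 9. That fit leaves only the 2 Intermediate arrays of low yield at 9 days, and 1290 genes were called in it, against 52 with all arrays. As the mean of the 9 day and sham differences, Low exceeded Intermediate by 3.35 ± 0.50 (adjusted p = 0.00962), 1 of 7 genes where 0.671% of all genes were called. This call held without any 1 array (adjusted p from 0.00309 to 0.0400) and in 6 of 14 other fits. The 9 day Low minus sham Low difference was -2.19 ± 0.70 (adjusted p = 0.168).

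The sham call of Dnase1l3 did not hold with the other probe set of the gene or in several other fits. That probe set gave 3.97 in 9 day Low against 3.01 in 9 day Intermediate, and 1.98 in sham Low against 2.00 in sham Intermediate. With yield as a covariate the sham difference was 3.88 (adjusted p = 0.119), and with the animal as a fixed term, the replicate block, it was 4.38 (adjusted p = 0.405). The mean difference over both pairs was 2.75 with the covariate (adjusted p = 0.300), 3.35 with the replicate block (adjusted p = 0.101) or only the groups compared (adjusted p = 0.0666), 2.64 with quantile normalization (adjusted p = 0.103) and 0.47 with the other probe set (adjusted p = 0.792). The sham call also ended without any 1 array of 4 h High, 4 h Intermediate, 24 h Intermediate, sham Intermediate or sham Low, and without 9 day Intermediate replicate 8 or 13, at adjusted p from 0.0594 to 0.137. On the sham 58 High arrays Dnase1l3 gave 2.82 (A), 5.51 (P) and 9.39 (P).

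Cd209a (chr8:3743395-3748984 in GRCm38.p6) encodes a C-type lectin related to human DC-SIGN that is found on mouse type 2 dendritic cells and on dendritic cells derived from monocytes. It was the gene of the set detected most often, on 12 of 21 arrays. In 4 h High it gave 7.20, 5.69 and 7.24, all called P, and in 4 h Intermediate 9.85 and 8.72, called P, and 3.52, called A (replicates 30, 32 and 33). In 24 h Intermediate the values were 4.60 (P), 2.55 and 3.03, and in 9 day Intermediate 2.55, 8.13 (P) and 3.09. The 4 h and 9 day Intermediate arrays thus split within their groups, with an SD of 3.38 at 4 h and 3.08 at 9 days (n = 3 each).

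Among the Low gates Cd209a gave 6.49 (P), 4.31 and 6.41 (P) in 9 day Low, against 9.41 and 9.52, both called P, in sham Low. Sham Intermediate gave 2.56, called A, and 7.51, called P, and sham High 3.75 and 2.72, called A. The sham Low mean of 9.47 ± 0.08 (SD, n = 2) was the highest group mean, and it overlapped with 4 h Intermediate. No difference passed: sham Low minus sham High was 6.23 ± 2.02 (at least 75.1-fold, adjusted p = 0.140), sham Low minus sham Intermediate 4.43 ± 2.02 (adjusted p = 0.524), and 24 h minus 4 h Intermediate -3.97 ± 1.65 (adjusted p = 0.571). Other members of the CD209 family were at or near background, since Cd209b and Cd209e were called P on 0 of 21 arrays, Cd209d on 1 and Cd209c on 3.

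Irf8 (chr8:120736358-120756694 in GRCm38.p6) encodes a transcription factor that type 1 dendritic cells need and that monocytes, macrophages and B cells also use. The gene gave 9.41, 11.58 and 10.40 in 9 day Low, all called P, against 5.57, 8.10 and 4.39 in 9 day Intermediate, of which only 8.10 was called P. In sham Low it gave 7.60 and 7.66, both called P, against 7.50 and 3.81 in sham Intermediate and 5.69 and 5.09 in sham High, all called A. All 3 arrays of 9 day Low lay above the other 18, whose highest value was 8.24, in 24 h Intermediate replicate 9. Irf8 was 1 of 7 genes with this order, which 1.59% of all genes showed. It passed the detection filter only through the 2 Low groups, so nothing is read from that count.

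The Irf8 difference at 9 days did not reach a call. In Low minus Intermediate it was 4.44 ± 1.22 (adjusted p = 0.0866), and without 9 day Intermediate replicate 9 it was called at 5.48 (adjusted p = 0.0117), in the same fit that rests on the arrays of low yield. Averaged over the 9 day and sham pairs the difference was 3.21 ± 0.96 (adjusted p = 0.111), and in 9 day Low minus sham Low it was 2.84 ± 1.36 (adjusted p = 0.486). The other probe set of Irf8 also had its highest means in the Low gates, with 9.83 in 9 day Low, 8.68 in sham Low and 3.06 to 5.20 in the other groups. With that probe set the mean difference over both pairs was called, so that 2 of 7 genes passed.

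Xcr1 (chr9:123852315-123862029) encodes the receptor for XCL1 on type 1 dendritic cells and Zbtb46 (chr2:181371009-181493262) a transcription factor of conventional dendritic cells and endothelium. Neither was tested. Xcr1 lay between 2.47 and 5.67 and was called P on 2 arrays, 9 day Low replicate 13 at 2.88 and sham Low replicate 1 at 3.00, while its highest value, in 9 day Intermediate replicate 8, was called A. Zbtb46 lay between 2.02 and 4.68 and was called P on 1 array, 9 day Low replicate 13 at 2.65, against 2.14 and 2.02 in sham Low, called A. For both genes the arrays called P were not the bright ones, so that no order of groups was read from these values.

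Itgae (chr11:73090505-73147449 in GRCm38.p6) encodes the integrin chain CD103, which binds E-cadherin on epithelium and marks type 1 dendritic cells and T cells of tissues. It was called P on 3 arrays, 4 h Intermediate replicate 30 at 11.37, 4 h Intermediate replicate 33 at 6.53 and sham Low replicate 1 at 4.50. In 4 h High it gave 4.34, 3.96 and 4.78, all called A, and the third 4 h Intermediate array gave 4.03, called A. The 4 h High minus Intermediate difference was -2.95 ± 1.26 (at least 7.75-fold lower, adjusted p = 0.787), and the 24 h minus 4 h Intermediate difference -3.01 ± 1.26 (adjusted p = 0.577). Both rest on 4 h Intermediate replicate 30: without it they were -0.92 and -0.98. Itgae had passed the detection filter only through 4 h Intermediate, and its other probe set was called P on 0 of 21 arrays.

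Set side by side, the 7 tested genes had a median log2 difference of 3.90 in sham Low minus sham Intermediate, beside 0.58 for all genes, and 6 of 7 lay above 0. In sham Low minus sham High the median was 3.47 against 1.81 over all genes, with 0 of 7 called, where 0.0839% of all genes were called and 5 of the 7 had an unadjusted p under 0.05, as did 1763 of all 8341 genes. The median was -0.25 against 1.24 in 9 day Low minus 9 day Intermediate, with 3 of 7 above 0 and 0 called, where 0.623% of all genes were called. It was -3.13 against -0.12 in 9 day Low minus sham Low, with 6 of 7 below 0. Irf8 was the 1 gene above 0. Since Flt3, Btla and Dpp4 entered the test only through sham Low, and Dnase1l3 and Irf8 only through the Low groups, these medians describe the genes that passed the filter and support nothing about the set of 9. Of these comparisons 3 share the sham Low arrays, so their values are not independent of each other.

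**Figure D3:**
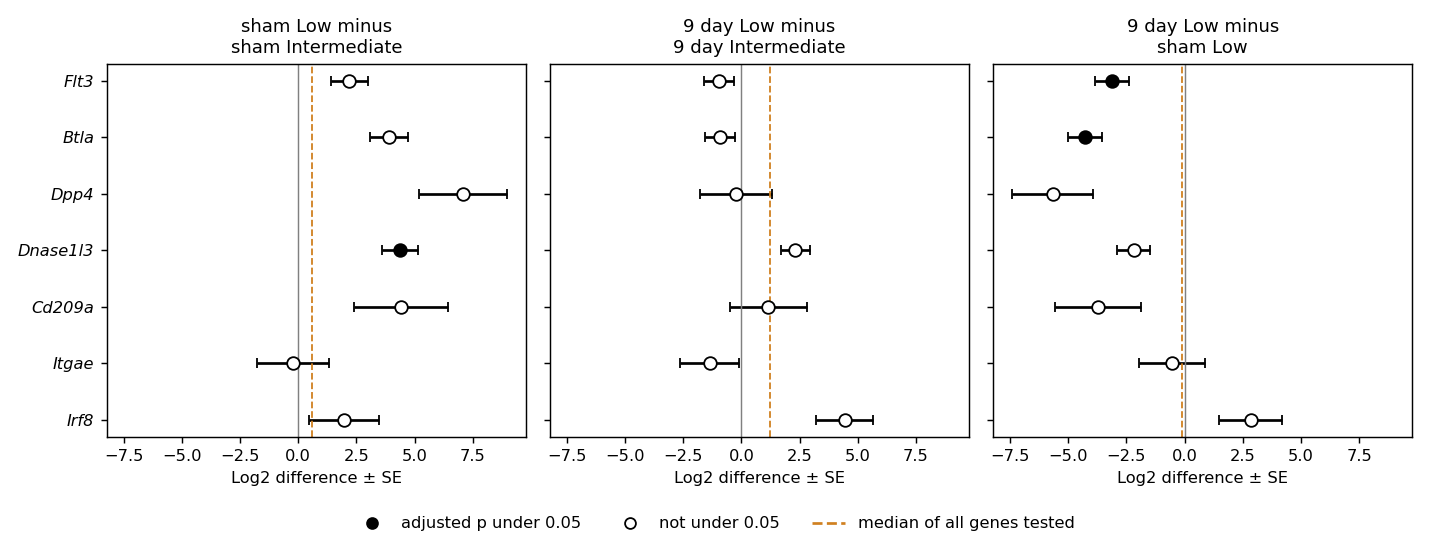
Log2 difference ± SE (x axis) of the 7 tested genes (rows) in 3 comparisons of Low gates, from the group-means model in limma; filled points have adjusted p under 0.05 and the dashed line is the median of all 8341 genes. Dnase1l3 is filled in sham Low minus sham Intermediate at 4.38, and Btla at -4.29 and Flt3 at -3.13 in 9 day Low minus sham Low.

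Over the 8 groups 2 of 7 genes differed by the F test, Dnase1l3 (F = 11.54, adjusted p = 0.00722) and Btla (F = 6.50, adjusted p = 0.0331), where 3.94% of all genes were called. The count was 1 without 24 h Intermediate replicate 8 or 9, 9 day Low replicate 9 or 13, or either sham Low array. Both sham Low arrays exceeded the other 19 for Flt3, Btla and Dnase1l3, 3 of 7 genes, an order that 1.32% of all genes showed. Flt3 and Btla were called P on both sham Low arrays and on none of the other 19, as were 0.659% of all genes. All of these genes had entered the test through groups in which they are high, Flt3 and Btla through sham Low and Dnase1l3 through the 2 Low groups, so these counts are descriptions.

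In the remaining comparisons 0 of 7 genes were called. The shares of all genes called were 0% in 4 h High against 4 h Intermediate (500 genes at an unadjusted p under 0.05), 0.432% in 4 h High against sham High, 0.216% in 4 h Intermediate against sham Intermediate, 0.456% in 24 h Intermediate against sham Intermediate, 0.683% in 9 day Intermediate against sham Intermediate and 0.120% in 24 h Intermediate against 4 h Intermediate. For Intermediate cells the medians of the 7 genes lay between -0.08 and 0.42 at 4 h, 24 h and 9 days relative to sham. The injury effects in the 2 gates at 9 days were also compared directly. Their difference, Low minus Intermediate, was -4.82 ± 1.03 for Btla (adjusted p = 0.121), -3.15 ± 1.02 for Flt3 (adjusted p = 0.432) and -7.32 ± 2.46 for Dpp4 (adjusted p = 0.470). There 0 of 7 dendritic cell genes and 0% of all genes were called, with 615 genes at an unadjusted p under 0.05, so a difference in injury effect between the gates was not shown.

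Other genes of conventional dendritic cells were given by lists written for this work with earlier results of these data known. Apart from the members, 6 genes of the conventional list were tested, and 0 were called in any of the 12 comparisons. In sham Low minus sham Intermediate 6 of 6 differences were positive and their median was 1.75, beside 0.58 for all genes. Examples were Cd83, a surface protein of activated dendritic cells (2.89 ± 2.02), and Ciita, the activator of MHC class II genes (2.72 ± 1.56), at adjusted p = 0.794 and 0.693. All 6 were again positive in 9 day Low minus 9 day Intermediate, and their median was 3.82 beside 1.24. Macrophage genes also lay mostly above 0 in these comparisons, with 12 of 12 positive at 9 days (median 4.12) and 11 of 12 in sham (median 2.03), while 8 of 8 neutrophil genes were below 0 at 9 days (median -3.15, 2 called). Cd83 was at 5.82 ± 1.65 (adjusted p = 0.0925), Ciita at 4.22 ± 1.28 (adjusted p = 0.112) and Itgax, which encodes CD11c, at 3.42 ± 1.27 (adjusted p = 0.165). Of the 6 genes 3 were above 0 in 9 day Low minus sham Low, with a median of 0.34 against -0.12, where Flt3 and Btla from the same list had fallen. Kit, the stem cell factor receptor, was called P on 0 of 21 arrays and Bcl11a on 1.

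Type 1 and type 2 genes gave no call in the Low gate comparisons. Of 10 further type 1 genes tested, 7 lay above 0 in sham Low minus sham Intermediate (median 0.74 against 0.58 over all genes), 7 in 9 day Low minus 9 day Intermediate (0.98 against 1.24) and 2 in 9 day Low minus sham Low (-0.74 against -0.12). Batf3, a partner of IRF8 in type 1 cells, was at -1.53 ± 1.19 in 9 day Low minus sham Low (adjusted p = 0.818). Of 8 further type 2 genes, 7 had positive differences in sham Low minus sham Intermediate, where the list had a median of 2.51. Mgl2, a lectin for galactose-type sugars, was at 3.01 ± 1.18 there (adjusted p = 0.430), and Klf4, a transcription factor of myeloid cells, at 2.80 ± 1.20 (adjusted p = 0.494). Of the type 2 genes 4 of 8 were above 0 in 9 day Low minus sham Low, and Klf4 was at 3.26 ± 1.09 (adjusted p = 0.193). Klf4 was the 1 type 2 gene called in any comparison. It was higher in 9 day Intermediate than in sham Intermediate by 5.98 ± 1.09 (adjusted p = 0.0223). There 0 of the 7 dendritic cell genes and 0.683% of all genes were called. Replicates 8 and 13 of 9 day Intermediate were arrays of low yield. The Klf4 mean was 10.33 in 9 day Intermediate and 10.41 in 9 day Low.

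Genes of mature and plasmacytoid dendritic cells also gave 0 calls in these comparisons. Among mature genes 7 of 8 lay above 0 in sham Low minus sham Intermediate (median 0.90 against 0.58), with Cd86, a costimulatory ligand, at 5.01 ± 2.10 (adjusted p = 0.473) and Ccl17, a chemokine for CCR4, at 4.43 ± 1.93 (adjusted p = 0.497). In 9 day Low minus sham Low 4 of 8 lay above 0 (median -0.17). Fscn1 and Il4i1 were called P on 0 of 21 arrays. For plasmacytoid cells 4 of 8 genes lay above 0 in sham Low minus sham Intermediate (median 0.54), and Siglech and Pacsin1, markers of that type, were called P on 0 of 21 arrays.

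The proteins that meet the products of the 9 genes formed a last list. Cav1, the coat protein of caveolae, which is reported to bind CD26 in human cells, was higher in sham Low than in sham Intermediate by 4.40 ± 0.78 (adjusted p = 0.0417) and lower in 9 day Low than in sham Low, at -5.05 ± 0.71 (adjusted p = 0.00220). It was the 1 called gene of 9 tested in each of these comparisons, where 0.0719% and 0.995% of all genes were called, and it passed the detection filter only through sham Low, where it is high. This list holds partners and not markers of dendritic cells, and which cells carried Cav1 was not tested. Itgb7, the β chain that pairs with CD103, was at 4.68 ± 1.54 in sham Low minus sham Intermediate (adjusted p = 0.310), and Cdh1, which encodes E-cadherin, at -4.85 ± 1.50 in 9 day Low minus sham Low (adjusted p = 0.150); both were named after their values were seen. Tnfrsf14, which encodes the BTLA ligand HVEM, and Cxcl12, a chemokine cut by CD26, were called P on 0 of 21 arrays. Xcl1, the XCR1 ligand, was called P on 2.

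Markers of other cells that a CD11b sort can hold also differed between the arrays, and their part in the results was not tested. Proximal tubule genes were called P on 3, 6 and 6 of 14 genes in 9 day Low, against 12 and 12 in sham Low, and on 12 and 12 in sham Intermediate. Their summed level, added up over the list on the linear scale, was 1901 to 4876 in 9 day Low, against 25890 to 31119 in sham Low and 40608 to 48286 in sham Intermediate. In 9 day Low minus sham Low 12 of 13 tubule genes lay below 0 (median -4.39, 0 called), beside the Flt3, Btla, Dpp4 and Cav1 differences. In sham Low minus sham Intermediate 9 of 13 lay below 0 (median -1.02), while Dnase1l3 and Cav1 were higher.

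Neutrophil genes had a summed level of 8328 to 11613 in 9 day Low, against 57921 to 59356 in sham Low, with 8 of 8 below 0 and 2 called lower (median -4.55). Endothelial genes were called P on 0 to 2 of 9 genes in 9 day Low, against 2 and 5 in sham Low, and 1 of 3 tested was called lower. B cell genes, of interest for Btla, were called P on 1 to 3 of 9 genes in 9 day Low, against 6 and 3 on the sham Low arrays, 2 and 0 for sham Intermediate and 1 and 1 for sham High. Their summed level ran the other way, at 386 to 1080 in 9 day Low, against 269 to 378 in sham Low. The tested B cell genes were split. Cd79b, the brightest of the list in 9 day Low, and Cd22 had means of 8.76 and 5.16 there, against 6.36 and 2.31 in sham Low. Cd79a and Fcrla had means of 4.26 and 3.34 in 9 day Low, against 6.37 and 5.60 in sham Low. T cell genes, of interest for Btla, Dpp4 and Itgae, were called P on 0 to 3 of 8 genes in 9 day Low, against 3 and 4 on the sham Low arrays and 1 and 1 for sham Intermediate. The summed level of the T cell genes was 80.5 to 129 in 9 day Low, against 138 to 196 in sham Low and 174 to 263 in sham Intermediate. Pax5, Cd5, Ncr1 and Egfl7, from the B cell, T cell, NK cell and endothelial lists, were called P on 0 of 21 arrays. NK cell genes had a summed level of 179 to 366 in 9 day Low, against 848 to 869 in sham Low. Classical monocyte genes had 0 called in 9 day Low minus sham Low, with 4 of 7 below 0 (median -2.70). Macrophage genes ran the other way, with 45706 to 66358 in 9 day Low, against 22595 to 29116 in sham Low, and 11 of 12 tested genes above 0 (median 1.18, 0 called).

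**Figure D4:**
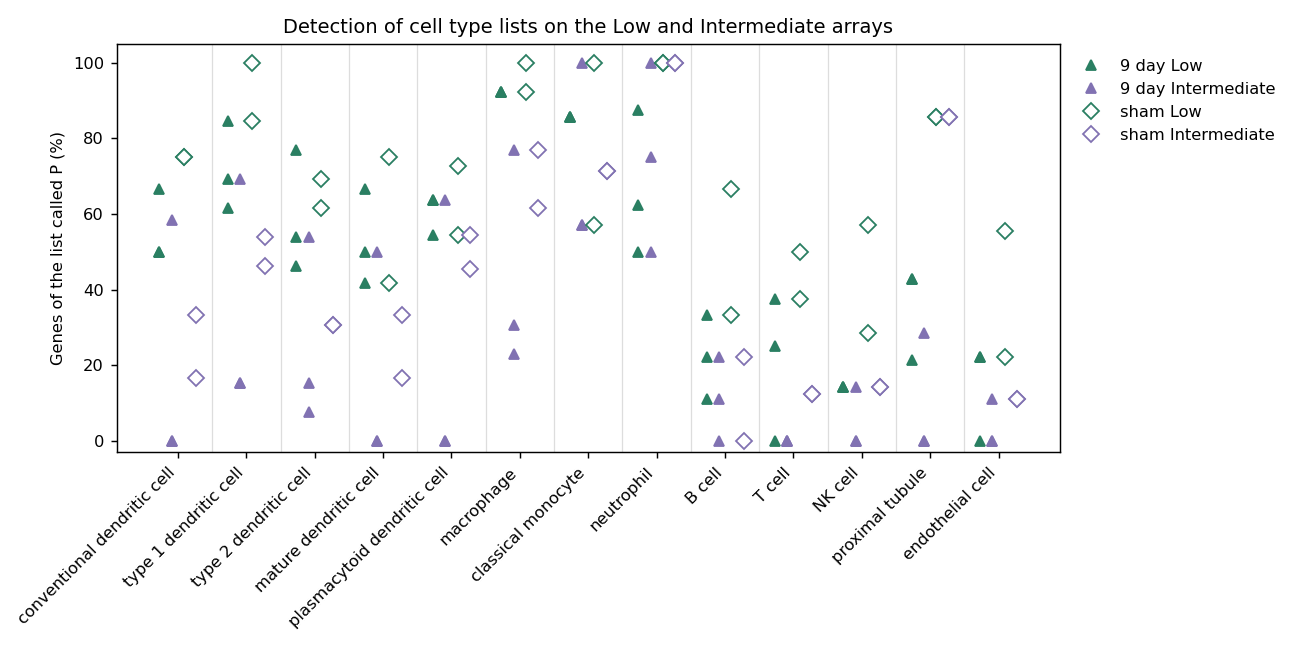
Share of the genes of each cell type list called P (y axis, %) on the arrays of 9 day Low, 9 day Intermediate, sham Low and sham Intermediate, with 1 point per array; points with the same share lie on top of each other. Proximal tubule genes reach 12 of 14 on all sham Low and sham Intermediate arrays and at most 6 of 14 in 9 day Low. The conventional dendritic cell list reaches 9 of 12 on both sham Low arrays. These include Flt3, Btla and Dpp4, which passed the detection filter only through sham Low. The others, Itgax, Cd83, Id2, Relb, Spi1 and Ciita, were also called P on all 3 arrays of 9 day Low.

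The genes whose pattern over the 21 arrays was most like that of a dendritic cell gene were listed for the 4 genes called P on at least 4 arrays. For Dpp4 they were B4gat1 (Pearson r = 0.91), Aen (0.90) and Cyria (0.87). For Dnase1l3 they were Adi1 (0.88), Grwd1 (0.85) and Rufy1 (0.83), and for Cd209a Polr2b (0.85), Chsy1 (0.83) and Ppp1r15b (0.81). For Irf8 they were Nfkbie, an inhibitor of NF-κB (0.87), Tmem119, a gene used to mark microglia (0.85), and Srgap2 (0.84). Among the 9 genes themselves the closest pair was Btla and Flt3 (r = 0.80). Both were called P only on the 2 sham Low arrays, through which they passed the filter, so nothing is read from this r. Next came Btla with Dpp4 (0.64) and with Dnase1l3 (0.63), while Irf8 had r = 0.54 with Dnase1l3 and -0.24 with Flt3. All these correlations are descriptions over arrays that share groups, animals and yield.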

How the data were processed

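Gene expression was measured on 25 mouse arrays, of which 21 in 8 groups were compared. Per the labels, RNA was amplified from picogram amounts. The deposited log2 values were made by the authors with RMA in Affymetrix Expression Console, per the submitters' processing notes; the versions are not stated there. The deposited linear intensities have a trimmed mean (2%) of 500 on every array, and the detection calls (P, M, A), another deposited value, set the filter. Quantile normalization of the deposited values moved differences, for Btla in 9 day Low minus sham Low from -4.29 to -3.08. The deposited values thus did not share a common distribution over the arrays. A value called A is not a measured level.

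Gene names came from the platform table: 34958 probe sets had 1 gene, 932 several and 9211 were unnamed. Means of the 8 groups were estimated in 1 limma 3.58.1 fit under R 4.3.3 (13 residual and 3.93 prior degrees of freedom), two-sided, with Benjamini-Hochberg adjustment over 8341 genes and calls at adjusted p under 0.05. Each ± beside a log2 difference is the model's standard error. Arrays of the same animal are paired by the labels' numbers; their residuals correlated at -0.07 to 0.06. Summed levels are sums of 2 to the power of the log2 value over a list. The fit was also run on simulated normal data built from each gene's mean and residual SD. That SD was the same for all arrays, so the differences in yield between arrays were not part of the simulation.

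The genes and lists were chosen with earlier results of these data known, among them Dnase1l3, Btla and Dpp4 between sham Low and sham Intermediate. Named genes were the 9 genes on every array, up to 4 called genes per list (otherwise up to 3 of smallest p; exceptions are named), and the 3 genes of highest correlation for each of the 9 detected on at least 4 arrays. Labels do not say whether arrays labelled sham 58 High are separate animals, so these 3 and 1 array of reference RNA stayed out. Alternatives were the linear intensities as log2(signal + 1), other normalization, filters, probe sets and fits, and leaving out each array. Sequences are RefSeq's (GRCm38.p6). Tables and figures were made with Python (pandas, matplotlib).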

Additional observations from a re-analysis of the deposited data

Results flagged for a closer look

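The 3 arrays labelled sham 58 High entered no comparison, and 4 of the 9 genes were called P on all 3 with each of the 3 values above both arrays of sham High. By the median alone Flt3, Dnase1l3 and Itgae were also higher there, at 4.21, 5.51 and 6.18, and Zbtb46 and Xcr1 were not. Btla had a median of 6.33 (log2) on the sham 58 High arrays, called P on 3 of 3, against 2.66 and 2.95 in sham High, both called A. Dpp4 had a median of 10.04, called P on 3 of 3, against 3.65 and 3.30 in sham High. Cd209a had a median of 7.22, with all 3 arrays called P, against 3.75 and 2.72. Irf8 had a median of 9.40, with 3 of 3 called P, against 5.69 and 5.09. The yield of these arrays was 29.3% to 33.6% of probe sets called P, against 1.99% and 12.9% in sham High, and the part of yield in these differences was not tested. The share of all genes with the order shown by these 4 genes was not counted, so nothing about the set of 9 is read from that count.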

How the results depend on the processing

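The number of the 7 tested genes called was 0 in 6 of the comparisons under every alternative run and without any 1 array. In sham Low minus sham Intermediate the count of 1 became 0 with log2(signal + 1), quantile normalization, centring on the array median, P required on every array of a group, only the groups compared, yield as a covariate, the other Dnase1l3 probe set, and the animal as a fixed term (the replicate block, which left 0 called). It became 2 with no detection filter, with a variance trend and robust prior, and without arrays of low yield, and 0 to 1 without single arrays. For the mean of the 9 day and sham differences the count of 1 became 0 with log2(signal + 1), quantile normalization, centring, only the groups compared, the fixed replicate block, the covariate and the other Dnase1l3 probe set, 2 with array weights or the other Irf8 probe set, and 1 to 2 without single arrays. In 9 day Low minus sham Low the count of 2 became 0 with log2(signal + 1), quantile normalization, centring and only the groups compared, 1 with P on every array of a group, and 0 to 2 without single arrays. The count of 0 in 9 day Low minus 9 day Intermediate became 1 with no filter or the mean of probe sets, 2 with array weights, and 0 to 2 without single arrays. In sham Low minus sham High the count of 0 became 2 with no filter or the variance trend, 1 with the mean of probe sets, and 0 to 2 without single arrays (2 without 9 day Intermediate replicate 9 or sham High replicate 2). The difference of injury effects went to 1 with no filter, the mean of probe sets or the variance trend, and stayed at 0 without any 1 array. By the F test the count of 2 became 0 with log2(signal + 1) and centring, 1 with quantile normalization, the covariate, the other Dnase1l3 probe set or, chosen after seeing the data, a further sham High sample made from the sham 58 average, and 1 to 3 without single arrays. The replicate block as a random term changed none of these counts by more than 1.5 times, and the fixed term could be fitted only for gates of the same animals.

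Signs turned with other probe sets. In sham Low minus sham Intermediate they gave -0.23 for Dpp4 and -0.02 for Dnase1l3, in sham Low minus sham High -0.57 and -0.31 for Dpp4 and -0.84 for Dnase1l3, in the mean of both pairs -0.29 and -0.66 for Dpp4, and in 9 day Low minus sham Low 0.27 for Dpp4 and 1.99 for Dnase1l3. With log2(signal + 1) the mean difference of Btla was -0.24. The median of the tested dendritic cell genes also moved over the alternatives. It ran from 2.19 to 4.5 in sham Low minus sham Intermediate and from 1.07 to 3.78 in sham Low minus sham High. In 9 day Low minus 9 day Intermediate it ran from -2.91 to 0.73, and in 9 day Low minus sham Low from -3.68 to -1.44. Over all genes the count called ran from 0 to 1759 over the alternatives in 9 day Low minus 9 day Intermediate (52 as reported), 0 to 45 in sham Low minus sham Intermediate (6), 14 to 302 in 9 day Low minus sham Low (83) and 171 to 1443 by the F test (329). The causes were not tested. With 2 or 3 arrays a group, values called A near background, and probe sets that disagree, the signal of these genes over background limits what can be read.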
